A study of Mus musculus with 6 samples.

Results

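The genes described here are 10 markers of intraepithelial lymphocytes, measured by RNA sequencing in colon epithelial cell isolates of Apc Min/+ mice. They were chosen by name, as genes of the T cell receptor complex, of CD8, of integrin alpha E and of cytotoxic granules, with earlier results of these data known. All 10 were found among the 52550 Ensembl identifiers of the 6 libraries. All libraries came from adult male Apc Min/+ mice of 5 to 6 weeks, which carry a truncating mutation in 1 copy of the tumour suppressor gene Apc and develop intestinal adenomas. The 3 control libraries came from mice given vehicle (2% Tween 80) by gavage every other day, and the 3 atorvastatin libraries from mice given the statin atorvastatin at 20 mg/kg on the same schedule. The labels give no untreated or wild-type group, and they do not say whether a replicate is 1 animal or a pool. The p-values therefore measure only the spread between these libraries, which may be partly technical.

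Intraepithelial lymphocytes are T cells that live between the epithelial cells of the gut, and many of them carry CD8 and store granzymes ready for release. They are held in the epithelium by integrin alpha E beta 7, which binds E-cadherin on the epithelial cells, and both alpha beta and gamma delta T cell receptors occur among them. An epithelial isolate can carry some of these cells along, so their transcripts appear as a low signal among those of the epithelium. Expression is given as FPKM, fragments divided by gene length and by the number mapped in the library, which allows levels of different genes to be set side by side.

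The isolates were dominated by epithelial transcripts. Epcam, a surface protein of epithelial cells, lay between 479 and 565 FPKM in the 6 libraries, while Ptprc, the gene of CD45, a surface protein of all leukocytes, lay between 0.688 and 1.98 FPKM. Each library held 11456 to 11655 genes at 1 FPKM or more. The number of sequenced reads is unknown, since FPKM carries no read totals. The commonest ratio between libraries among genes under 0.1 FPKM set the depth of the other libraries, relative to control replicate 1, between 0.996 and 1.14; the largest value was that of control replicate 3. The means of 4 members (Cd8a and the CD3 genes) were near or below 1 FPKM, where few reads stand behind a value, and the spread over the libraries is the sole measure of its error.

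RefSeq promoter windows on build GRCm38.p6 (250 bases before to 50 after an annotated start) were available for 8 of the 10 genes, in 9 windows because Lck has a pair of them; Itgae and Klrd1 had none in the table used. The motifs of factor families known in cytotoxic T cells were searched on both strands, namely the RUNX core TGTGGT (reverse ACCACA), the T-box site AGGTGTGA (reverse TCACACCT) and the ETS site AGGAAGT (reverse ACTTCCT). None of these matches overlapped another in these windows. The RUNX letters stood in 4 of the 9 windows and in 16.8% of all 32851 windows of that length, the ETS letters in 4 of 9 and in 9.35%, and the T-box letters in 1 of 9 and in 1.28%. The 4 windows with the RUNX letters are shown because they include those of the 2 most abundant members, Gzma and Gzmb, which are set against the other members below. Each is written 5′ to 3′ on the strand of its gene, with all motif matches in capitals. These matches are a description of the letters, and no binding was measured in these samples.
Gzmb, chr14:56262285-56262584, minus strand: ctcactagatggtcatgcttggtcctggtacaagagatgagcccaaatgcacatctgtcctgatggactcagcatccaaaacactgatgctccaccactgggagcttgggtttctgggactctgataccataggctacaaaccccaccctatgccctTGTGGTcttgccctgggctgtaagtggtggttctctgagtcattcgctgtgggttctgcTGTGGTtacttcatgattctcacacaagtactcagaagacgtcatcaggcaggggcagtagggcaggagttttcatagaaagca
Gzma, chr13:113100932-113101231, minus strand: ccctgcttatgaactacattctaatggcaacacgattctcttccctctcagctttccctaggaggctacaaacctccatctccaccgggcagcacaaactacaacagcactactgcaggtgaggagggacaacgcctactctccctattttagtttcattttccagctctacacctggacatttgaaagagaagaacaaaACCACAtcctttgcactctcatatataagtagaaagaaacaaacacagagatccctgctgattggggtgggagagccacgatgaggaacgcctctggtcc
Nkg7, chr7:43436888-43437187, plus strand: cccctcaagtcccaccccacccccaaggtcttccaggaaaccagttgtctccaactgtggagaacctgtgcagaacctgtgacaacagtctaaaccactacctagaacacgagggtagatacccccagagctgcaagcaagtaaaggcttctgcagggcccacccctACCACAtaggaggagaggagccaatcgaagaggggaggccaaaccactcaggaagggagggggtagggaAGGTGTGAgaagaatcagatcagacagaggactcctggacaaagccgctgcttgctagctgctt
Lck, upstream start, chr4:129573592-129573891, minus strand: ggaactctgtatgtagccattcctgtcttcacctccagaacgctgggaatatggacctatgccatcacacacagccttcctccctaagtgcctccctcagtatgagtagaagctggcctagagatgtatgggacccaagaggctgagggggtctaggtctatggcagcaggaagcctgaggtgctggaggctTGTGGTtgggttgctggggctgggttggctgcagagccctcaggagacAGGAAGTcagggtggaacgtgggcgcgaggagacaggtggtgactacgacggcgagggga
Positions are counted from the RefSeq start of each window, which can differ from the gene spans given further below. For Nkg7 the RefSeq start lies inside that span, and for Gzmb it lies upstream of it. In the Gzmb window the RUNX letters begin 93 and 34 bases before the start. In the Gzma window they begin 50 bases before it, on the opposite strand. The Nkg7 window holds the RUNX letters 83 bases before the start, on the opposite strand, and the T-box letters 14 bases before it. The upstream Lck window holds the RUNX letters 58 and the ETS letters 10 bases before the start.

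All 10 genes had a lower mean with atorvastatin than in control, and none passed the test over all genes. The ratio of the control mean to the atorvastatin mean ran from 1.4 for Lck to 2.14 for Cd3d. Across all 10 genes the median difference in log2(FPKM + 1), atorvastatin minus control, was -0.38 (-0.75 with a pseudocount of 0.1, since the pseudocount of 1 shrinks differences of low genes), against 0.02 over all 11644 tested genes. Of those tested genes 42.7% had a negative difference. In bulk libraries fewer cells of a type and less RNA per cell cannot be told apart.

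A gene was tested if it reached 1 FPKM in at least 3 of the 6 libraries, which 7 members did (Gzma, Gzmb, Lck, Nkg7, Itgae, Klrd1 and Cd8a) and the 3 CD3 genes did not. With limma's moderated test and Benjamini-Hochberg adjustment, 0 of these 7 had an adjusted p under 0.05, where 0.404% of all tested genes did (0.249% as lower genes). At an unadjusted p under 0.05, 6 of the 7 were lower, where 4.27% of tested genes were. Limma without trend and robust options gave the same 2 counts, 0 and 6. The count of 6 was not stable: scaling to equal totals gave 5 of 7, and the replicate block 4 of 7. Dropping control replicate 1 or 2 left 3 of 6 tested members, and dropping atorvastatin replicate 1 or 2 left 3 of 7. Dropping control replicate 3 raised the count to 7 of 7, while dropping atorvastatin replicate 3 gave 6 of 6. The groups did not overlap in 5 of the 10 genes (Gzmb, Lck, Nkg7, Cd3e and Cd3d), of which 3 were tested, where 6.05% of tested genes were lower without overlap. Since the filter counts libraries of either group, it can pass a gene through the group where it is high.

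The members shared features of their library order. Control replicate 3 was the lowest control library in 10 of 10 genes, the highest of the 6 libraries was control replicate 1 in 5 genes and control replicate 2 in the other 5, and atorvastatin replicate 3 was the highest atorvastatin library in 10 of 10. Summed over the 10 genes, the levels were 32.0, 30.5 and 17.6 FPKM in control replicates 1, 2 and 3 and 12.8, 14.5 and 17.3 FPKM in atorvastatin replicates 1, 2 and 3. In this sum control replicate 3 lay beside atorvastatin replicate 3 and far below the other control libraries. Without control replicate 3 the groups did not overlap in 10 of 10 genes, where 11.9% of tested genes were lower without overlap, and the median difference was -0.55. Without atorvastatin replicate 3 they did not overlap in 9 of 10 (background 8.12%). With any other single library left out, the count stayed at 5 of 10 (background 8.62% to 12.3%). Leaving out a library can only keep or raise this count. Both replicates 3 were picked after their place in the order was seen, so the rise is description only.

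**Figure D1:**
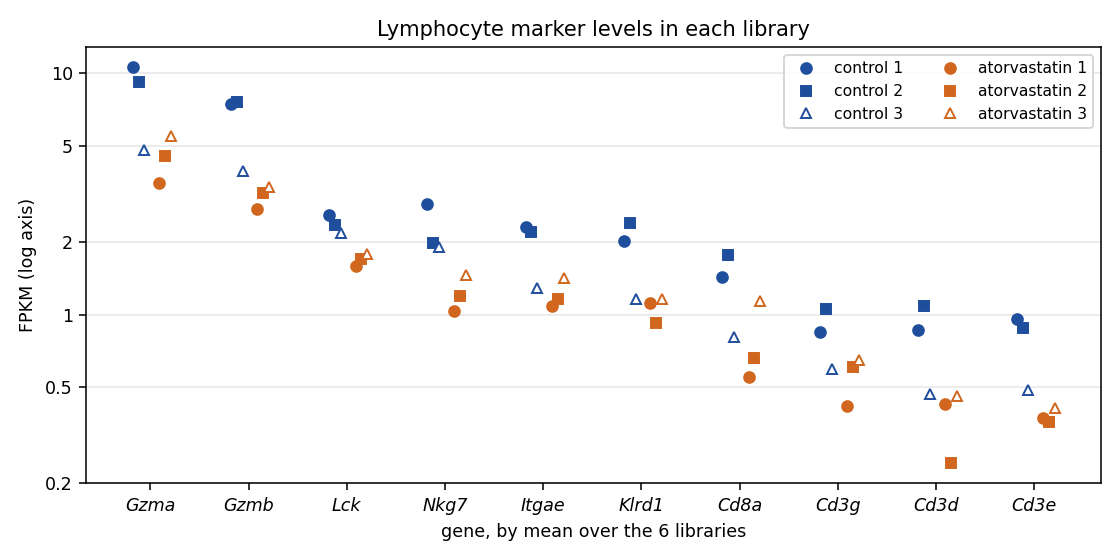
FPKM on a log axis of the 10 lymphocyte marker genes in each library, ordered by their mean over the 6 libraries; blue points are control and orange points atorvastatin, and the symbol gives the replicate (circle 1, square 2, open triangle 3). The open blue triangle of control replicate 3 lies below the other control points in all 10 genes. For Lck (2.17 against 2.35 FPKM) and Nkg7 (1.90 against 1.98 FPKM) it lies nearer control replicate 2 than any atorvastatin point. In the other genes it lies near the atorvastatin points, for Gzma below that of atorvastatin replicate 3 (4.80 against 5.48 FPKM).

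By mean level over the 6 libraries the order was Gzma, Gzmb, Lck, Nkg7, Itgae, Klrd1, Cd8a, Cd3g, Cd3d and Cd3e. The ranges of neighbours in this order overlapped, except that Gzmb, at 2.73 FPKM or more, lay above Lck, at 2.59 FPKM or less. The granule protease genes were thus the most abundant members. Gzmb encodes granzyme B, a protease that cytotoxic lymphocytes release into target cells to trigger their death (ENSMUSG00000015437, chromosome 14, 56258838 to 56262260, minus strand). It was at 7.47, 7.58 and 3.93 FPKM in control replicates 1, 2 and 3 and at 2.73, 3.19 and 3.38 FPKM with atorvastatin. All control libraries lay above all atorvastatin libraries, control replicate 3 by the narrowest gap. The means were 6.33 ± 2.08 and 3.10 ± 0.335 FPKM (SD, n = 3 each), a log2 difference of -0.80 ± 0.22 (SE; 95% interval -1.32 to -0.28, limma adjusted p = 0.217). Without control replicate 3 the difference was -1.06 and passed (limma adjusted p = 0.018, where 0.579% of tested genes were called); over its 17 alternatives the adjusted p ran from 0.018 to 0.496, and it was under 0.05 in that 1 alone. The other 6 tested members had adjusted p-values of 0.063 to 0.208 without that library.

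Gzma encodes granzyme A, a granule protease of different cleavage preference (ENSMUSG00000023132, chromosome 13, 113093825 to 113100981, minus strand). It was at 10.6, 9.24 and 4.80 FPKM in the control libraries and at 3.50, 4.52 and 5.48 FPKM with atorvastatin. The groups overlapped, since atorvastatin replicate 3 lay above control replicate 3. The means were 8.22 ± 3.05 and 4.50 ± 0.993 FPKM (SD, n = 3 each), and the log2 difference was -0.70 ± 0.27 (SE; limma adjusted p = 0.385). Gzma lay above Gzmb within all 6 libraries, at 6.36 and 4.71 FPKM on average, while their ranges over the libraries overlapped (3.50 to 10.6 and 2.73 to 7.58 FPKM).

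Nkg7 encodes a membrane protein of cytotoxic granules needed for their efficient release (ENSMUSG00000004612, chromosome 7, 43437073 to 43438249, plus strand). Its levels were 2.86, 1.98 and 1.90 FPKM in the control libraries and 1.04, 1.19 and 1.46 FPKM with atorvastatin. The groups did not overlap, and control replicate 1 stood above the other 5 libraries. The log2 difference was -0.54 ± 0.13 (SE; 95% interval -0.84 to -0.23, limma adjusted p = 0.163).

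Klrd1 encodes CD94, which pairs with NKG2 receptors on NK cells and cytotoxic T cells (ENSMUSG00000030165, chromosome 6, 129591782 to 129598775, plus strand). It was at 2.01, 2.39 and 1.16 FPKM in the control libraries and at 1.12, 0.923 and 1.16 FPKM with atorvastatin. Control replicate 3 and atorvastatin replicate 3 had nearly the same value, and the groups overlapped. The log2 difference was -0.44 ± 0.16 (SE; limma adjusted p = 0.352).

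The CD3 chains, which carry the signal of the T cell receptor into the cell, were the lowest members. Their genes lie together on chromosome 9: Cd3g (44969572 to 44980431, minus strand) and Cd3d (44981786 to 44987339, plus strand) start 1355 bases apart and are read in opposite directions, and Cd3e follows at 44998740 to 45009627 on the minus strand. Cd3e was at 0.956, 0.883 and 0.488 FPKM in the control libraries and at 0.374, 0.358 and 0.409 FPKM with atorvastatin, without overlap. Cd3d was at 0.865, 1.09 and 0.467 FPKM in the control libraries and at 0.428, 0.243 and 0.460 FPKM with atorvastatin. Its groups did not overlap, but control replicate 3 and atorvastatin replicate 3 were nearly equal. Cd3g was at 0.850, 1.05 and 0.598 FPKM in the control libraries and at 0.419, 0.608 and 0.646 FPKM with atorvastatin, and overlapped. None of the 3 was tested with the filter above; in a fit of the 13155 genes whose mean over all libraries reached 0.5 FPKM their log2 differences were -0.35, -0.38 and -0.23 for Cd3e, Cd3d and Cd3g (limma adjusted p = 0.284, 0.349 and 0.482, where 0.319% of these genes were called, 0.205% as lower). The ranges of the 3 chains over the libraries overlapped, with means over the 6 libraries of 0.578, 0.593 and 0.696 FPKM.

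Lck encodes the kinase that phosphorylates the CD3 chains and binds the tails of CD4 and CD8 (ENSMUSG00000000409, chromosome 4, 129548344 to 129573641, minus strand). It was at 2.59, 2.35 and 2.17 FPKM in the control libraries and at 1.59, 1.70 and 1.78 FPKM with atorvastatin. The groups did not overlap, and in each group the SD was smaller relative to the mean than in the other 9 members. The means were 2.37 ± 0.211 and 1.69 ± 0.0923 FPKM (SD, n = 3 each), and the log2 difference was -0.32 ± 0.07 (SE; 95% interval -0.49 to -0.15, limma adjusted p = 0.139). This was the smallest adjusted p of the 7 tested members, beside the smallest ratio of means of all 10.

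Cd8a encodes the alpha chain of CD8, the coreceptor for MHC class I (ENSMUSG00000053977, chromosome 6, 71373427 to 71379173, plus strand). It was at 1.43, 1.76 and 0.807 FPKM in the control libraries and at 0.549, 0.661 and 1.14 FPKM with atorvastatin. Atorvastatin replicate 3 lay above control replicate 3, and the groups overlapped. The log2 difference was -0.38 ± 0.19 (SE; 95% interval -0.82 to 0.06, limma adjusted p = 0.481). Itgae encodes integrin alpha E, known as CD103 (ENSMUSG00000005947, chromosome 11, 73090583 to 73147446, plus strand). It was at 2.31, 2.19 and 1.29 FPKM in the control libraries and at 1.09, 1.16 and 1.42 FPKM with atorvastatin, again with overlap through both replicates 3. The log2 difference was -0.38 ± 0.15 (SE; limma adjusted p = 0.375). Haspin, a mitotic kinase gene, lies inside the span of Itgae on the opposite strand, and was at 2.79, 1.83 and 2.62 FPKM in the control libraries and 2.97, 3.53 and 3.32 FPKM with atorvastatin. The strand setting of the counting is not given in the sources used here, so reads of the overlapping stretch cannot be assigned to Itgae or Haspin with certainty.

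**Figure D2:**
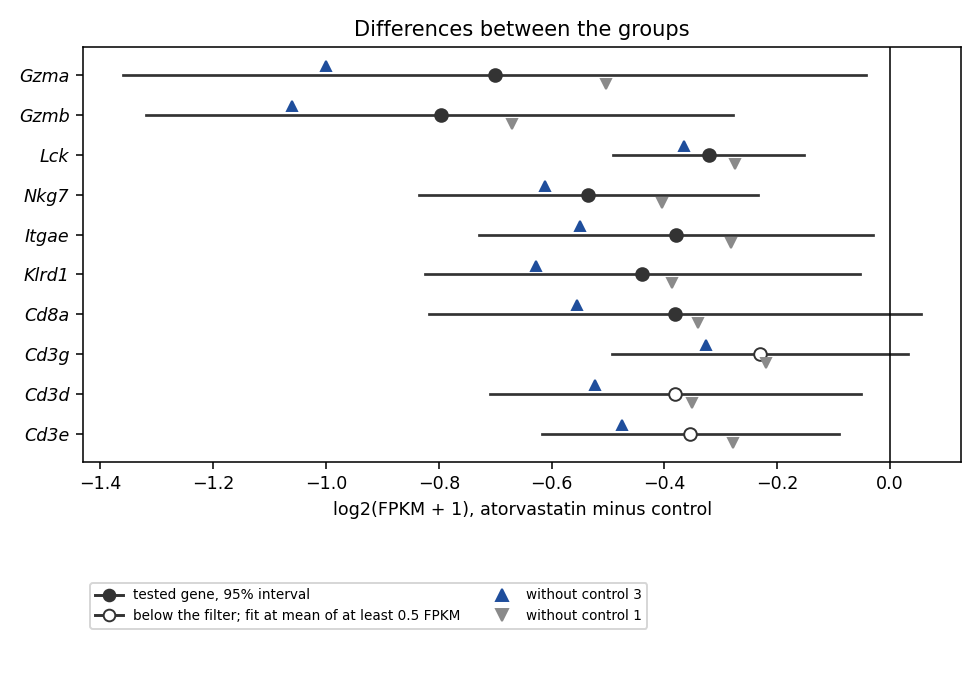
Difference in log2(FPKM + 1), atorvastatin minus control, for the 10 genes, with 95% intervals of limma's fit; filled circles are the 7 tested genes and open circles the 3 CD3 genes in the fit of genes whose mean reached 0.5 FPKM, and triangles show the difference without control replicate 3 (blue, up) or without control replicate 1 (grey, down). All values lie below 0, the intervals of Cd8a and Cd3g cross 0, and leaving out control replicate 3 moved Gzmb from -0.80 to -1.06.

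Levels were also compared within each library, relative to the CD3 genes. The summed level of the 3 CD3 genes was 2.67, 3.03 and 1.55 FPKM in the control libraries and 1.22, 1.21 and 1.51 FPKM with atorvastatin, so that its highest library was 2.51 times its lowest. Divided by this sum, the other 7 members differed between their highest and lowest library by 1.23 (Klrd1) to 1.87 times (Nkg7). The ratio varied less than the level itself in 6 of the 7, for example 1.25 against 2.78 times for Gzmb and 1.87 against 2.75 times for Nkg7. Lck was the exception, since its level varied 1.62 times and its ratio 1.82 times. The ratio of Gzmb to the CD3 sum was 2.80, 2.50 and 2.53 in control and 2.23, 2.64 and 2.23 with atorvastatin, with overlap. The ratio of Gzma to Gzmb was 1.42, 1.22 and 1.22 in control and 1.28, 1.42 and 1.62 with atorvastatin, also with overlap. For 6 of the 7 ratios to the CD3 sum the groups overlapped. The exception was Itgae, at 0.864, 0.722 and 0.828 in control and 0.895, 0.956 and 0.940 with atorvastatin, where the ratio was higher with the drug by a small amount; it was singled out after the values were seen, and reads of Haspin could enter it as stated above. The CD3 sum itself, divided by Ptprc, was 1.47, 1.53 and 1.36 in control and 1.78, 1.47 and 1.29 with atorvastatin, with overlap. These ratios share their denominator and were not tested.

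**Figure D3:**
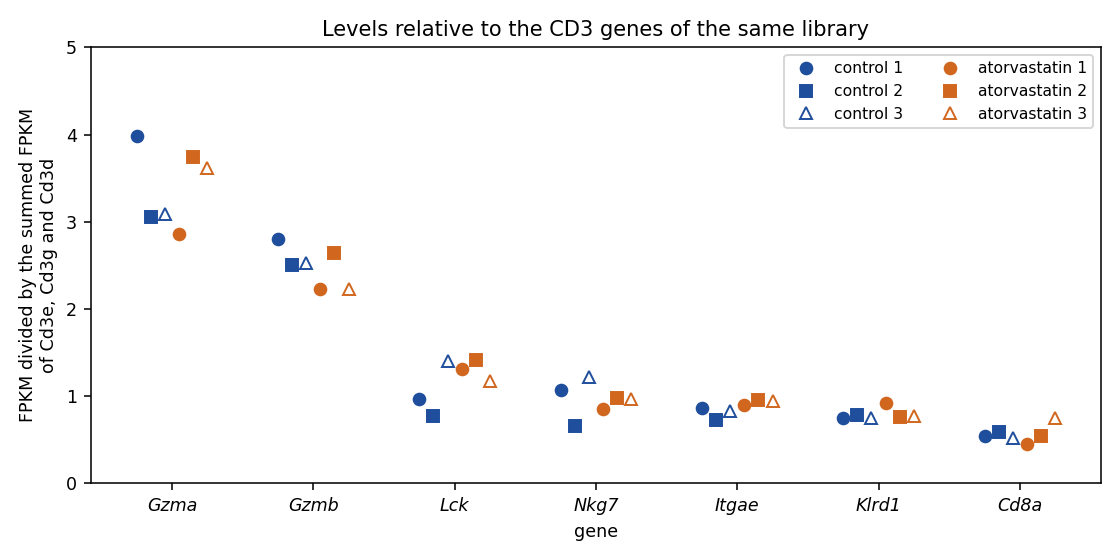
FPKM of 7 member genes divided by the summed FPKM of Cd3e, Cd3g and Cd3d in the same library; blue points are control and orange points atorvastatin, with the symbol giving the replicate. The groups overlap in 6 of the 7 genes, and the ratio of Gzmb stays between 2.23 and 2.80 while the CD3 sum itself runs from 1.21 to 3.03 FPKM.

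Of 16 further receptor and coreceptor genes, control replicate 3 was the lowest control library in 15 and atorvastatin replicate 3 the highest atorvastatin library in 14. All 16 had a lower mean with atorvastatin (median log2 difference -0.30), 5 were tested and 0 passed limma's test (2 at an unadjusted p under 0.05). The constant segment of the receptor alpha chain, Trac, was at 3.14, 2.76 and 1.72 FPKM in the control libraries and 1.14, 1.65 and 2.00 FPKM with atorvastatin. The beta chain segments Trbc1 and Trbc2 had means of 1.92 and 2.39 FPKM over the 6 libraries; they are near-identical in their coding part, so the value of each alone is uncertain. The gamma delta receptor was present too: Trdc, its delta segment, was at 0.452, 0.541 and 0.172 FPKM in the control libraries and 0.111, 0.192 and 0.263 FPKM with atorvastatin, and Tcrg-C2 at a mean of 1.18 FPKM. The ratio of Trdc to Trac lay between 0.0968 and 0.196 in all libraries and overlapped between the groups. Cd7, a surface protein of T and NK cells, was the most abundant gene of this list, at 5.49, 5.58 and 2.48 FPKM in the control libraries and 2.41, 2.25 and 1.88 FPKM under atorvastatin (limma adjusted p = 0.325), where atorvastatin replicate 3 was the lowest library.

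The coreceptor genes were unequal. Cd4, the coreceptor of helper T cells, was at 0.0428, 0.115 and 0 FPKM in the control libraries and at 0, 0 and 0.0164 FPKM with atorvastatin, far below Cd8a in every library. Cd8b1, the CD8 beta chain, was at 0.514, 0.718 and 0.274 FPKM in the control libraries and 0.0547, 0.196 and 0.395 FPKM with atorvastatin. Its ratio to Cd8a was 0.358, 0.407 and 0.340 in control and 0.0997, 0.297 and 0.346 with atorvastatin, so the beta chain gene was below the alpha chain gene in all 6 libraries. Cd247, which encodes the CD3 zeta chain, was at 0.177 to 0.308 FPKM in the control libraries and 0.0494 to 0.159 FPKM with atorvastatin. Foxp3, the factor of regulatory T cells, stayed at or below 0.0507 FPKM.

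Of 17 genes of receptor signalling, 16 had a lower mean with atorvastatin (median log2 difference -0.11 over all 17), 3 were tested and 0 passed (1 lower at an unadjusted p under 0.05). Ptpn22, a phosphatase that restrains receptor signalling, had an adjusted p of 0.595 in limma's test. Vav1, an exchange factor used by many blood cells, had the opposite sign, at 1.35, 1.46 and 1.22 FPKM in the control libraries and 1.51, 1.45 and 1.56 FPKM with atorvastatin.

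The granule genes outside the members differed widely in level. Ctsw was at 3.78, 3.56 and 2.25 FPKM in the control libraries and 2.02, 1.91 and 2.69 FPKM with atorvastatin. Its groups overlapped (limma adjusted p = 0.427). Prf1, which encodes the pore-forming protein perforin, was nearly absent, at 0.106, 0.0424 and 0.0609 FPKM in the control libraries and 0.0315, 0.0105 and 0.0463 FPKM with atorvastatin. Of 18 granule genes 5 were listed at 0 in every library, all of them granzyme genes (Gzmd, Gzme, Gzmf, Gzmg and Gzmn). Srgn, the proteoglycan serglycin on which granzymes are stored, was at 3.60, 3.65 and 2.26 FPKM in the control libraries and 1.49, 1.21 and 1.83 FPKM with atorvastatin, without overlap (limma log2 difference -0.72, adjusted p = 0.137). The widely expressed lysosome and secretion genes Lamp1 (means 158 and 156 FPKM) and Stxbp2 (22.4 and 22.8 FPKM) were close in the groups, as was Ctsc, which activates granzymes (17.6 and 16.8 FPKM). Of the list 7 were tested and 0 passed (1 lower at an unadjusted p under 0.05), and 9 of 18 had a lower mean with atorvastatin. Serpinb9, an inhibitor of granzyme B, was at 1.51, 2.03 and 1.18 FPKM in the control libraries and 1.13, 1.13 and 1.32 FPKM with atorvastatin, and Serpinb6a, of the same inhibitor family, lay between 59.8 and 68.0 FPKM.

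NK cell receptors were low. Of 16 receptor and adaptor genes 13 had a mean under 0.5 FPKM, 15 had a lower mean with atorvastatin, and the single tested gene, Tigit, an inhibitory receptor of T and NK cells, did not pass (limma adjusted p = 0.377, unadjusted p = 0.0376). Ncr1, which encodes the NK cell receptor NKp46, stayed at or below 0.0699 FPKM, and Klrc1, which encodes the NKG2A partner of CD94, was at 0.275 to 0.522 FPKM in the control libraries and 0.166 to 0.236 FPKM with atorvastatin.

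Among 18 homing, residence and cytokine genes, 15 had a lower mean with atorvastatin, 5 were tested and 0 passed (3 lower at an unadjusted p under 0.05). Itgb7, the beta chain that pairs with integrin alpha E, was at 1.36, 1.42 and 0.630 FPKM in the control libraries and 0.476, 0.493 and 0.832 FPKM with atorvastatin. Ccl5, a chemokine stored by cytotoxic T cells, was at 7.49, 8.84 and 4.17 FPKM in the control libraries and 3.10, 3.58 and 4.31 FPKM under atorvastatin (limma adjusted p = 0.328), and Il2rb, the receptor chain for interleukins 2 and 15, had a log2 difference of -0.47 (limma adjusted p = 0.198). Tnf, at 12.0 to 17.5 FPKM, and Cd44, at 4.44 to 6.76 FPKM, were abundant and did not follow the order of the members. Of 15 transcription factor genes of T and NK cells 11 had a lower mean with atorvastatin, 6 were tested and 0 passed (2 lower and 1 higher at an unadjusted p under 0.05). Bcl11b and Tcf7, factors of T cell identity, had log2 differences of -0.24 each (limma adjusted p = 0.399 and 0.4), while Id2, which other cells also use, was higher at an unadjusted p = 0.0267 in limma's test, with a log2 difference of 0.22 (adjusted p = 0.334) and a mean of 9.59 FPKM.

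The epithelial side of the contact was measured as well. Cdh1, which encodes E-cadherin, the ligand of integrin alpha E, was at 291, 294 and 291 FPKM in the control libraries and 294, 283 and 261 FPKM with atorvastatin, a log2 difference of -0.06 (95% interval -0.20 to 0.08, limma adjusted p = 0.742). Il15, a survival factor for these lymphocytes, was at 4.34, 4.21 and 3.50 FPKM in the control libraries and 4.20, 4.39 and 4.41 FPKM with atorvastatin. The butyrophilin-like genes Btnl1 and Btnl6, whose products maintain gamma delta lymphocytes in the gut, were at 35.5, 41.1 and 33.8 against 24.0, 30.6 and 28.9 FPKM and at 42.5, 36.4 and 30.0 against 29.6, 34.2 and 30.2 FPKM (limma adjusted p = 0.211 and 0.609). Btnl1 did not overlap between the groups and Btnl6 did. H2-T23, a class Ib molecule that is the ligand of the CD94 and NKG2A receptor, was at 52.5, 52.3 and 45.9 FPKM in the control libraries and 33.1, 37.7 and 34.3 FPKM with atorvastatin, a log2 difference of -0.51 ± 0.08 (SE; limma adjusted p = 0.0539). Raet1e, which encodes a stress ligand of the NKG2D receptor, went the other way without overlap, at 3.47, 3.75 and 3.61 FPKM in the control libraries and 4.71, 4.77 and 4.65 FPKM under atorvastatin (log2 difference 0.31 ± 0.05, SE; limma adjusted p = 0.0733). Ulbp1, of the same ligand family, and the chemokine gene Ccl28 were also higher without overlap, with log2 differences of 0.37 and 0.17 (limma adjusted p = 0.322 and 0.276). Of the 21 genes of this list 17 were tested, with a median log2 difference of -0.02, and 0 passed (4 lower and 3 higher at an unadjusted p under 0.05).

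Markers of other blood cells moved with the members. Of 8 pan-leukocyte genes all had a lower mean with atorvastatin, and their summed level was 16.7, 19.1 and 10.8 FPKM in the control libraries and 8.25, 8.47 and 10.7 FPKM with atorvastatin. B and plasma cell markers (12 genes, 6 lower) summed to 12.0, 13.0 and 6.16 FPKM in the control libraries and 3.87, 4.32 and 3.33 FPKM with atorvastatin; Igkc was the most abundant of them, and the B cell marker Ms4a1 was at or below 0.0709 FPKM. Mast cell markers (8 genes, 7 lower) summed to 24.5, 26.0 and 14.0 FPKM in the control libraries and 10.3, 11.1 and 8.72 FPKM with atorvastatin, with Kit, which other cells also express, at 6.20 to 7.90 FPKM. Macrophage and dendritic cell markers (13 genes, 10 lower) summed to 7.41, 10.6 and 5.10 FPKM in the control libraries and 4.97, 3.91 and 4.33 FPKM with atorvastatin, with Adgre1 at or below 0.194 FPKM. In all 4 lists control replicate 3 was the lowest control library. The neutrophil list did not follow the order: its sum of 16.4 to 40.5 FPKM was nearly all Ly6g, while S100a8 stayed at or below 0.107 FPKM and Mpo and Elane at or near 0. The innate lymphoid list was carried by Areg and Kit, with Il5 at 0 in every library and Il13 and Il23r near 0.

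Markers of the colon epithelium did not follow that order. Their 16 genes summed to between 10325 and 11746 FPKM over the 6 libraries, with 0 of 15 tested genes called (0 lower and 2 higher at an unadjusted p under 0.05). The 14 genes of fibroblasts, endothelium, muscle and nerve summed to 1.48 to 1.68 FPKM in the control libraries and 1.19 to 2.02 FPKM with atorvastatin, with Cdh5, Kdr and Des at or near 0. Haemoglobin and other erythrocyte genes summed to 8.76 to 9.78 FPKM in the control libraries and 3.00 to 19.4 FPKM with atorvastatin. The mitochondrial ribosomal RNA mt-Rnr1, whose level varies with library preparation, had levels of 2156, 2631 and 1828 FPKM in the control replicates and of 1195, 1160 and 1526 FPKM after atorvastatin, without overlap. The part that each of these has in the differences of the members was not tested.

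**Figure D4:**
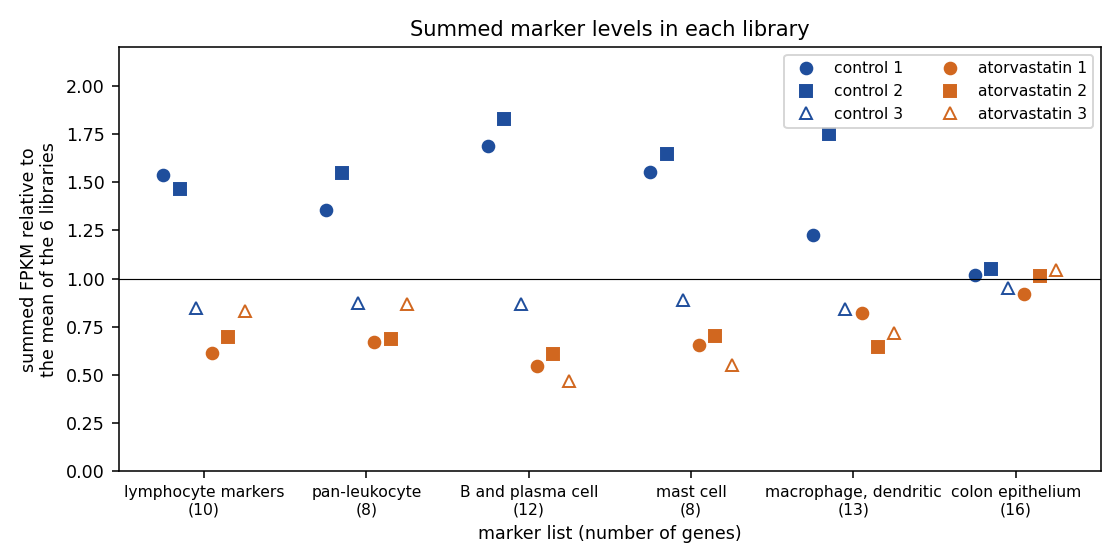
Summed FPKM of 6 marker lists in each library, divided by the mean of the 6 libraries; blue points are control and orange points atorvastatin, with the symbol giving the replicate. Control replicates 1 and 2 lie above the other 4 libraries in the 5 blood cell lists, and the colon epithelium list stays near 1 in all libraries.

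The genes outside the 10 with the most similar profile were largely leukocyte genes. Profiles were log2(FPKM + 1) minus the mean over the 6 libraries, and the distance was the root mean square difference from the mean profile of the 10 members, among 11574 genes whose mean reached 1 FPKM. The 8 nearest included Ptprc (0.0554), Rgs1 (0.0598), Trbc1 (0.0614), Emb (0.0618), Arhgap45 (0.0624), Cyp2d26 (0.0669) and Il2rb (0.0682), where the median distance was 0.305. Rgs1, a regulator of chemokine receptor signals in lymphocytes, was at 1.70, 1.84 and 1.07 FPKM in the control libraries and 0.825, 0.895 and 1.19 FPKM with atorvastatin. Cyp2d26, a cytochrome P450, was far more abundant, at 15.9, 17.2 and 12.4 FPKM in the control libraries and 11.0, 10.6 and 11.4 FPKM with atorvastatin. Of the members themselves Itgae lay nearest to their mean profile (0.0402) and Gzma farthest (0.22), followed by Gzmb (0.205). None of the 8 passed limma's test (adjusted p = 0.198 to 0.441). The distance favours genes of similar size of difference, and 6 libraries cannot separate many such profiles.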

How the data were processed

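RNA from colon epithelial cells was sequenced in 3 control and 3 atorvastatin libraries, grouped by their titles. The deposited values are FPKM per Ensembl gene, a unit read from the values (not whole, with totals of 407857 to 430832); the tools named in the submitters' processing notes are FastQC 0.11.2 and Bowtie, with build mm10. The quantification tool, annotation, strand setting and handling of reads that map to several places are not given in the sources used here, and the read depth is unknown. Symbols came from a gene table (99.72% of identifiers) and coordinates from GENCODE M21 on GRCm38, which mm10 denotes.

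The 11644 genes that reached 1 FPKM in 3 or more of the 6 libraries were fitted as log2(FPKM + 1) in limma 3.58.1 (R 4.3.3, trended and robust, two-sided, Benjamini-Hochberg adjusted p under 0.05, no block); the code was tested on simulated data. Figures and tables used Python 3.11.15. A set of 18 alternatives changed the pseudocount, the filter, the scaling, the variance model, the block or the libraries. The members and the gene lists were chosen with earlier results of these data known. Named genes are the members, up to 4 of the most abundant genes of each list with a mean of at least 1 FPKM, fixed examples, the 8 nearest profiles, and low markers, Trdc, Klrc1, Foxp3, Vav1, Il15, Tcf7, H2-T23, Raet1e, Ulbp1, Ccl28 and overlapping genes, picked after their values were seen. Some genes that this rule selects are not reported here.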

Additional observations from a re-analysis of the deposited data

How the results depend on the processing

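The mean difference was negative for all 10 members under all 18 alternatives. No member was called in 17 of them, and 1 (Gzmb) was called without control replicate 3, so the count of called members ran from 0 to 1 with a library left out. The median log2 difference of the members was -0.748 with a pseudocount of 0.1 and ran from -0.552 to -0.308 with a library left out. The count of members without overlap, recomputed as an alternative chosen after seeing the data, ran from 5 to 10 with a library left out. Of all genes, 47 were called; 2 were called with no filter on low values, and 2 to 67 with a library left out (2 without control replicate 1, 30 without control replicate 2, 13 without atorvastatin replicate 1, 17 without atorvastatin replicate 3). With the replicate block 1 gene was called and no member. Same-numbered libraries did not deviate together over the tested genes (correlations of -0.139, -0.106 and 0.0136). Control replicate 1 correlated best with atorvastatin replicate 2 (0.164). The labels state no pairing, and with 3 libraries per group these correlations cannot settle whether same-numbered libraries were handled together. With at least 5 FPKM in 3 libraries only Gzma was tested (limma adjusted p = 0.432). At levels near 1 FPKM, the spread between libraries limits what these tests can detect.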
